A study of Mus musculus with 8 samples.

Results

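Levels of 35 genes of blood progenitors, megakaryocytes and platelets were examined in whole E11.5 mouse embryos bearing 0 to 2 copies of an Ott1 allele of low expression (Ott1 is the older name of Rbm15). The genes were a list of 16 progenitor and 19 megakaryocyte or platelet genes, the lineages known to be affected by loss of Rbm15 in the adult. A gene was measured where the RefSeq accession of an array probe belonged to it. Of the 35 genes, 30 were matched by 31 of the 34967 gene probes, and Hlf, Gp6, Thbs1, Tubb1 and Mmrn1 were matched by none and are not reported here.

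The study set embryos of 3 genotypes from matings of carriers side by side on one-colour oligonucleotide arrays, 1 embryo per array. Homozygous embryos 2, 7 and 16 carried the low-expression allele on both chromosomes, heterozygous embryos 3, 10 and 15 carried it on one, and wild-type embryos 11 and 13 carried none. The sources used here give no litter, sex or strain, and do not say how the allele was made. No probe was matched to Rbm15, so the genotypes could not be checked against the level of the targeted gene. Each array read the RNA of all tissues of an embryo, so a smaller number of blood cells and less RNA per blood cell cannot be told apart.

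Rbm15 belongs to the Spen proteins, binds RNA and guides the m6A methyltransferase to some transcripts, and in humans it forms the RBM15-MKL1 fusion of acute megakaryoblastic leukaemia. At midgestation, blood stem and progenitor cells arise from the endothelium of the dorsal aorta and of the yolk sac and placental vessels, under Runx1 and Gata2, and then colonise the fetal liver. Megakaryocytes, the large cells that shed platelets, are already present in the yolk sac and the early liver, and their granule proteins and adhesion receptors are among the most lineage-restricted products of blood.

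Levels are given as log2 of the quantile-normalized spot intensity, with a floor at 2.17. A probe was tested where every array of some genotype showed it above background. That held for 23 member genes (11 progenitor, 12 megakaryocyte) and for 23389 probes in all. A level depends on the probe as well as on the RNA, so levels of different genes are not set against each other. The arrays differed in brightness, with median raw intensities of 61.4, 61.5 and 87.9 in homozygous embryos 2, 7 and 16, against 48.3 to 57.6 in heterozygous and 56.0 to 56.5 in wild-type embryos. Homozygous embryo 16 stood apart. It had 1634 spots marked as faulty, against 206 to 616 in the others, and it held the lowest value of the 8 embryos for 38.3% of the 21788 tested probes with no missing value. Summed markers of other cell types are given below beside the genes they touch.

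No progenitor or megakaryocyte gene differed between the genotypes past the threshold, an adjusted p of 0.05 in limma with Benjamini-Hochberg adjustment over all tested probes. For homozygous against wild-type embryos, 0 of 23 members passed, against 8 of 23387 probes (0.0342%), and 2 of 23 were under an unadjusted p of 0.05, against 15.3% of all probes. For heterozygous against wild-type embryos, 0 of 23 passed, against 0 probes (0.0%), and 0 members were under an unadjusted p of 0.05, against 2.3% of all probes. Neither comparison with wild-type embryos called a member. The comparison of homozygous with heterozygous embryos also gave 0 of 23, against 5 probes (0.0214%), and 0 members were under an unadjusted p of 0.05, against 11.6% of all probes. The 3 homozygous embryos against the 5 others gave 0 of 23, against 25 of 23388 probes (0.107%), and 3 of 23 members were under an unadjusted p of 0.05, against 20% of all probes. The F test for any difference among the 3 genotypes gave 0 of 23, against 6 probes (0.0257%), and 1 member was under an unadjusted p of 0.05, against 10.8% of all probes. In each comparison the share of members under the unadjusted threshold was below the share of all probes. These comparisons share embryos and are not independent of each other.

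The 3 genes that came under an unadjusted p of 0.05 for homozygous against the other embryos were Gata2, Fli1 and Itgb3, all on the low side. Gata2, the zinc-finger factor that stem cells need to form and persist, was at 5.52, 5.45 and 5.14 in homozygous embryos 2, 7 and 16, against 5.72, 5.70 and 5.55 in heterozygous embryos 3, 10 and 15 and 5.88 and 5.78 in wild-type embryos 11 and 13. Every homozygous value lay below the other 5, the nearest pair being homozygous embryo 2 and heterozygous embryo 15. The log2 difference was -0.35 (SE 0.12, 95% interval -0.62 to -0.08; limma, adjusted p = 0.183) for homozygous against the other embryos. Against wild-type embryos alone it was -0.46 (SE 0.15; adjusted p = 0.256), and the F test gave an adjusted p of 0.439. Gata2 is also made by endothelium, mast cells and neurons. Summed mast cell markers (3 probes summed of 6 genes) were 608 to 679 intensity units in homozygous embryos, against 670 to 847 in heterozygous and 829 to 845 in wild-type embryos, with the defining genes Cpa3 and Fcer1a not above background on any array. Most of that sum came from 1 bright probe, Tpsb2. Hdc was at 5.39 to 5.66 in homozygous, 5.14 to 5.78 in heterozygous and 5.34 to 5.64 in wild-type embryos. Cma1 was at 5.11 to 5.43, 5.01 to 5.76 and 5.45 to 5.50 in the same groups. Summed neuron markers (8 of 8) were 5484 to 6162 in homozygous, 5161 to 8643 in heterozygous and 8531 to 9080 in wild-type embryos. Summed endothelial markers (13 probes summed of 16 genes) were instead highest in a homozygous embryo. They were 5559 to 7447 in homozygous, 5200 to 5703 in heterozygous and 5235 to 5414 in wild-type embryos. The part of these cells in the Gata2 values was not tested.

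Fli1, the ETS-family factor that drives the late megakaryocyte programme and is also an endothelial gene, was at 7.49, 7.21 and 7.46 in homozygous embryos 2, 7 and 16, against 7.71, 7.59 and 7.69 in heterozygous and 7.80 and 7.63 in wild-type embryos. Its 3 homozygous values again lay below the other 5. The log2 difference was -0.29 (SE 0.10, 95% interval -0.52 to -0.07; limma, adjusted p = 0.185) against the other embryos. Against wild-type embryos alone it was -0.33 (SE 0.13; adjusted p = 0.311). Summed endothelial markers (13 probes summed of 16 genes) were 5559 to 7447 in homozygous embryos, against 5200 to 5703 in heterozygous and 5235 to 5414 in wild-type embryos, with the highest value in a homozygous embryo. The part of endothelium in the Fli1 values was not tested.

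Itgb3, the beta chain of the platelet fibrinogen receptor, was at 5.12, 5.25 and 4.57 in homozygous embryos, against 5.37, 5.76 and 5.18 in heterozygous and 5.50 and 5.29 in wild-type embryos. The groups overlapped, because homozygous embryo 7 lay above heterozygous embryo 15. The log2 difference against the other embryos was -0.44 (SE 0.18, 95% interval -0.86 to -0.02; limma, adjusted p = 0.232). Gata2 and Fli1 were 2 of 23 members whose homozygous values all lay below the others, against 9.51% of all probes, and 0 of 23 had all homozygous values above the others, against 4.71% of all probes. Those 2 counts among the members were thus no larger than the background. Without homozygous embryo 16 the differences from the other embryos were -0.24 for Gata2, -0.33 for Fli1 and -0.24 for Itgb3 (limma adjusted p = 0.335, 0.255 and 0.474).

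**Figure D1:**
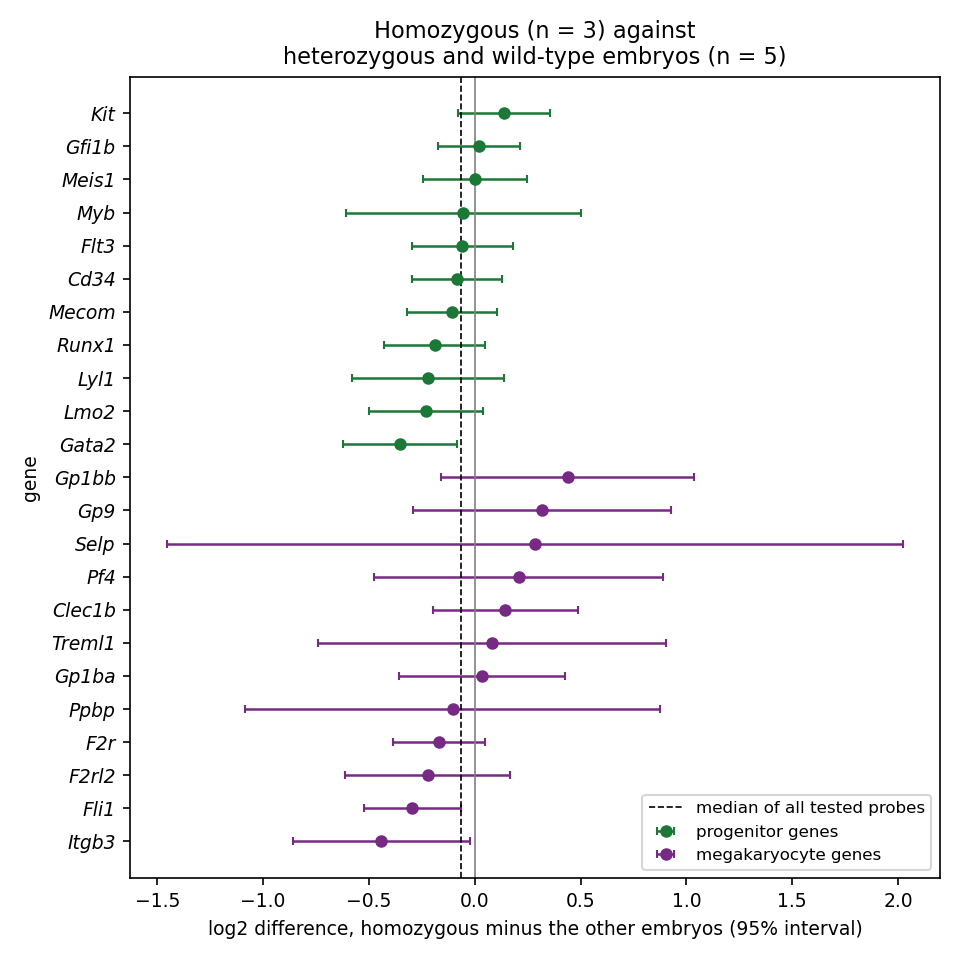
Difference in log2 intensity (horizontal axis, homozygous minus the other embryos) for the 23 tested genes, 11 progenitor genes above 12 megakaryocyte genes. Points are limma estimates and bars 95% intervals, the dashed line is the median of all tested probes (-0.06), and the intervals of 20 of the 23 genes hold 0, the exceptions being Gata2, Fli1 and Itgb3.

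The other tested progenitor transcription factors gave no difference between genotypes at an unadjusted p under 0.05 in limma. Runx1, which endothelial cells need to turn into blood, was at 6.23, 6.37 and 6.42 in homozygous embryos 2, 7 and 16, against 6.53, 6.58 and 6.68 in heterozygous and 6.31 and 6.55 in wild-type embryos. The homozygous values lay below all heterozygous ones and overlapped the wild-type ones. Myb, required for fetal liver but not for primitive yolk sac blood, was at 5.72, 5.87 and 6.88 in homozygous embryos, against 6.19, 6.0 and 6.29 in heterozygous and 6.38 and 6.20 in wild-type embryos. Homozygous embryos thus held both the lowest and the highest Myb values, the highest being that of embryo 16.

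Lmo2 belongs to the protein complex that Tal1 nucleates on stem cell and erythroid enhancers. Lmo2, its LIM-domain bridge, was at 8.45, 8.35 and 8.34 in homozygous embryos, against 8.35, 8.76 and 8.66 in heterozygous and 8.49 and 8.77 in wild-type embryos. Lyl1, a helix-loop-helix relative of Tal1, was at 7.81, 7.68 and 7.30 in homozygous embryos, against 7.64, 8.13 and 7.67 in heterozygous and 7.71 and 7.94 in wild-type embryos. For both genes the groups overlapped, and heterozygous embryo 10 was at or near the top.

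Gfi1b, a repressor needed for red cell and platelet formation, was at 6.74, 6.77 and 6.68 in homozygous embryos, against 6.65, 6.70 and 6.68 in heterozygous and 6.67 and 6.85 in wild-type embryos. Meis1, a homeodomain partner of Hox proteins that is active in many embryonic tissues besides blood, was at 11.22, 11.16 and 11.24 in homozygous, 11.18, 11.01 and 11.28 in heterozygous and 11.12 and 11.43 in wild-type embryos. Mecom, which encodes the stem cell factor Evi1, was at 8.03, 8.28 and 8.22 in homozygous, 8.39, 8.26 and 8.27 in heterozygous and 8.32 and 8.20 in wild-type embryos. Values of these 3 genes interleaved across genotypes. A second Mecom probe, at 7.89 to 7.96 in homozygous, 7.85 to 8.19 in heterozygous and 8.0 to 8.20 in wild-type embryos, did not pass the test either.

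Gfi1 and Ikzf1 were not tested. Gfi1, the repressor that restrains stem cell division and guides granulocytes, was above background in 1 of 8 embryos and lay at 2.55 to 3.60 in homozygous, 2.17 to 2.79 in heterozygous and 3.22 to 3.77 in wild-type embryos. Ikzf1, which encodes the lymphoid factor Ikaros, was above background in 0 of 8 embryos, at 2.17 to 3.25 in homozygous, 2.61 to 2.90 in heterozygous and 3.05 to 3.81 in wild-type embryos. Such values only bound the level from above.

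Among progenitor surface and signalling genes, Kit, Cd34 and Flt3 were measured in every embryo. Kit, the receptor for stem cell factor, was at 7.97, 7.87 and 8.13 in homozygous embryos, against 7.85, 7.88 and 7.90 in heterozygous and 7.71 and 7.93 in wild-type embryos. Cd34, a sialomucin of progenitors and of endothelium, was at 8.96, 8.88 and 9.07 in homozygous, 9.01, 9.14 and 9.07 in heterozygous and 9.14 and 8.91 in wild-type embryos. Flt3, a cytokine receptor of multipotent progenitors, was at 6.03, 6.25 and 6.35 in homozygous, 6.23, 6.11 and 6.31 in heterozygous and 6.38 and 6.29 in wild-type embryos. All 3 overlapped between the genotypes. Kit also marks germ cells, melanoblasts and mast cells. Summed germ cell markers (3 probes of 6 genes) were 342 to 383 in homozygous, 338 to 470 in heterozygous and 341 to 394 in wild-type embryos. Summed melanoblast markers (2 probes of 7 genes, Tyr not above background on any array) were 148 to 170 in homozygous, 114 to 231 in heterozygous and 239 to 247 in wild-type embryos.

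Cd48 and Vav1, both pan-leukocyte genes, were near background and varied within the homozygous and heterozygous groups. Cd48, an adhesion protein of the SLAM family, was above background in 2 of 8 embryos and lay at 2.17, 4.17 and 5.75 in homozygous, 4.42, 2.31 and 4.74 in heterozygous and 4.85 and 4.34 in wild-type embryos. Vav1, a guanine nucleotide exchange factor of blood cells, was above background in 3 of 8 and lay at 4.03, 4.23 and 6.67 in homozygous, 5.02, 3.68 and 6.03 in heterozygous and 4.53 and 4.73 in wild-type embryos. Homozygous embryo 16 had the highest value of both genes and heterozygous embryo 15 the next highest of Vav1.

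**Figure D2:**
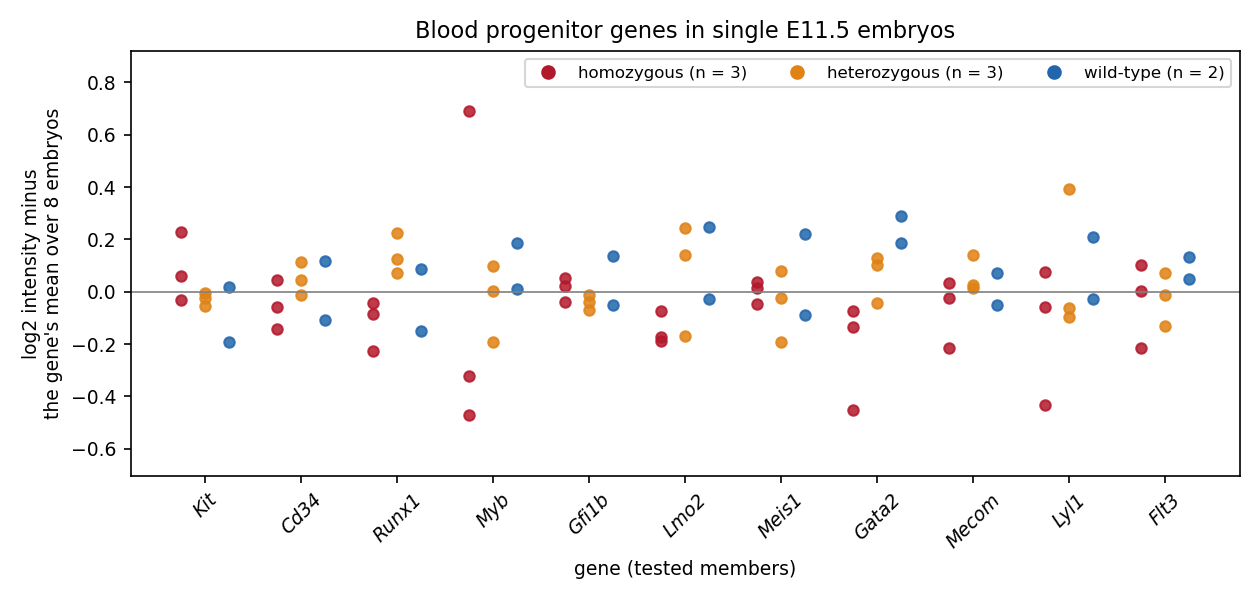
Log2 intensity of the 11 tested progenitor genes in single embryos, minus each gene's mean over the 8 embryos (vertical axis). Red points are homozygous, orange heterozygous and blue wild-type embryos, and the Gata2 points alone have all 3 homozygous embryos below the 5 others.

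Of the 9 megakaryocyte adhesion and activating receptors, 6 were tested, and only Itgb3, above, had an unadjusted p under 0.05. The von Willebrand factor receptor is a complex of Gp1ba, Gp1bb, Gp9 and Gp5. Gp1ba, the ligand-binding chain, was at 5.52, 4.94 and 4.98 in homozygous embryos 2, 7 and 16, against 4.90, 5.33 and 5.33 in heterozygous and 5.08 and 4.92 in wild-type embryos. Gp1bb, its disulphide-linked partner, was at 7.97, 6.95 and 7.27 in homozygous, 6.79, 6.52 and 7.34 in heterozygous and 6.87 and 7.27 in wild-type embryos. Homozygous embryo 2 had the highest value of both chains, and the remaining values interleaved. Gp5, the chain that thrombin cleaves, was above background in 5 of 8 embryos and not tested, at 6.42, 4.24 and 6.25 in homozygous, 4.63, 4.59 and 5.22 in heterozygous and 3.56 and 4.93 in wild-type embryos.

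Itga2b, the alpha chain of the fibrinogen receptor and the earliest megakaryocyte surface marker in the embryo, was above background in 2 of 8 embryos, homozygous 2 and 7, and was not tested. It lay at 4.79, 4.80 and 3.34 in homozygous, 4.51, 4.29 and 4.33 in heterozygous and 3.74 and 4.44 in wild-type embryos. Clec1b, the podoplanin receptor through which platelets keep lymphatic vessels apart from veins, was at 9.32, 9.61 and 10.04 in homozygous embryos, against 9.42, 9.57 and 9.55 in heterozygous and 9.59 and 9.45 in wild-type embryos. Homozygous embryos held both its lowest and its highest value.

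Gp9, Treml1, Pf4 and Ppbp each spanned over 1 log2 unit across the 8 embryos. Gp9, the small chain of the von Willebrand factor receptor, was at 6.62, 7.06 and 7.66 in homozygous embryos, against 6.57, 6.26 and 7.05 in heterozygous and 7.05 and 7.04 in wild-type embryos. Treml1, an alpha-granule receptor that reaches the platelet surface on activation, was at 6.99, 7.35 and 8.25 in homozygous, 7.22, 6.74 and 8.04 in heterozygous and 7.30 and 7.95 in wild-type embryos. In both genes homozygous embryo 16 was the highest and heterozygous embryo 10 the lowest. Pf4, platelet factor 4, a chemokine stored in alpha granules, was at 9.83, 9.99 and 10.65 in homozygous, 9.90, 9.21 and 10.55 in heterozygous and 9.88 and 10.22 in wild-type embryos. Ppbp, the neighbouring alpha-granule chemokine gene, was at 8.83, 9.09 and 9.27 in homozygous, 8.96, 7.86 and 9.99 in heterozygous and 9.23 and 9.78 in wild-type embryos. Within each genotype Pf4, Treml1 and Ppbp put the embryos in the same order, with embryos 16, 15 and 13 the highest of their genotype and embryos 2, 10 and 11 the lowest.

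The likeness of each measured gene to Pf4 over the 8 embryos was taken as Pearson's r, with Pf4 chosen after its values were seen. Treml1 had r = 0.952 (exact two-sided permutation p = 4.96e-05, adjusted p = 0.00154 over 31 relations) and Spearman's rho of 0.976 (exact permutation adjusted p = 0.0123). Without homozygous embryo 16 and heterozygous embryo 10, the 2 farthest from the median of Pf4, r was 0.937. The likeness of Treml1 to Pf4 thus did not rest on those embryos. Since Pf4 was chosen after the fact, r was also computed for all 253 pairs of the 23 tested members, of which Pf4 and Treml1 were the 1 pair that passed (exact permutation adjusted p = 0.0125). The permutation treats embryos of all genotypes alike. For deviations from the genotype means, given as a description, r was 0.965. Ppbp followed with r = 0.858 and rho = 0.857 (exact permutation p = 0.00841 and 0.0107, adjusted p = 0.0887 and 0.166), and r was 0.936 without those 2 embryos. Gp9 had r = 0.866 and rho = 0.69 (exact permutation p = 0.00858 and 0.0694, adjusted p = 0.0887 and 0.446), and r was 0.537 without the same 2. Itgb3 had a negative r of -0.822 (exact permutation p = 0.0175, adjusted p = 0.136), which was -0.326 without them. The r of Gp9 and of Itgb3 with Pf4 was thus weaker without those 2 embryos. Leaving them out also narrows the range of Pf4, so the weaker values do not show that the relations rested on them. These adjusted values cover the 22 members and 9 marker sums set against Pf4, and not the choice of Pf4. Over all 253 pairs the adjusted p was 0.362 for Pf4 with Ppbp and with Gp9 and 0.373 with Itgb3.

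Array brightness and markers of other blood cells are given beside these levels. The brightest array, that of homozygous embryo 16 (median raw intensity 87.9), had the highest Pf4, Treml1 and Gp9 values. Heterozygous embryos 10 and 15, at opposite ends of the Pf4 order within their genotype, had median raw intensities of 48.3 and 48.7. The same 2 embryos also held the lowest and the highest heterozygous sums of macrophage markers (674 and 1867), neuron markers (5161 and 8643) and fetal liver markers (3646 and 6483). Their mast cell (670 and 847) and melanoblast (114 and 231) sums ran the same way. Other sums ran the opposite way, with erythroid, endothelial, cardiac and germ cell markers at 5811, 5703, 24893 and 470 in embryo 10. Embryo 15 had 5639, 5538, 21423 and 361 for these. The part of brightness and of these tissues in the platelet gene values was not tested. Summed erythroid markers (12 probes of 14 genes) were 5637 to 7275 in homozygous, 5639 to 5811 in heterozygous and 6050 to 6560 in wild-type embryos, and had r = 0.515 with Pf4 (exact permutation p = 0.192). Summed macrophage markers (10 probes of 15 genes) had r = 0.429 (exact permutation p = 0.282). Macrophages also make Pf4 in mice, and their summed markers were 780 to 797 in homozygous, 674 to 1867 in heterozygous and 1453 to 1591 in wild-type embryos. Of 11 macrophage markers tested for homozygous against the other embryos, 6 were lower and 1 higher at an unadjusted limma p under 0.05, against 20% of all probes. Cd163 was at 5.40 to 6.61 in homozygous, against 5.16 to 5.57 in heterozygous and 5.23 to 5.60 in wild-type embryos. The Fc receptor gene Fcgr1 was at 3.75 to 3.83 in homozygous, 4.68 to 5.48 in heterozygous and 5.96 to 6.01 in wild-type embryos. It was the 1 marker in all the lists that passed, in homozygous against wild-type embryos (limma adjusted p = 0.0484). For homozygous against the other embryos Fcgr1 did not pass, and it passed there in 4 of 19 alternative settings of the processing. Fcgr1 was above background in 5 embryos only, and values not above background only bound the level from above. Its lowest values, those of homozygous embryos, may be such bounds, so the size of its difference from wild-type embryos is uncertain. Fcgr1 may then have entered the test only through the genotypes where it was high. In that case the filter and the call rest on the same values. The part of macrophages in the Pf4 level was not tested.

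**Figure D3:**
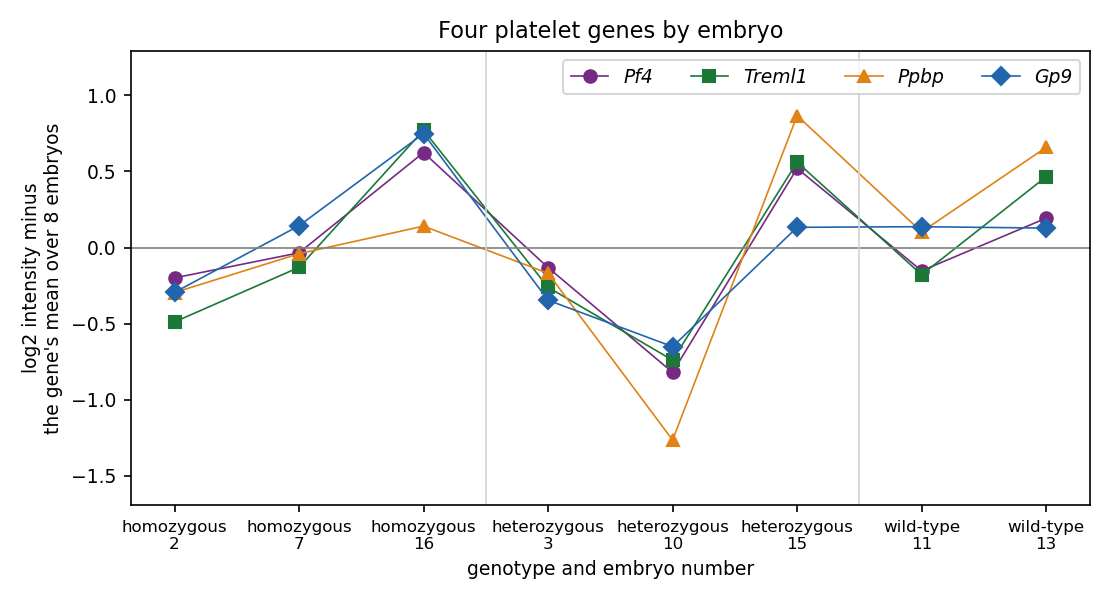
Log2 intensity of Pf4, Treml1, Ppbp and Gp9 minus each gene's mean over the 8 embryos (vertical axis), by embryo, with homozygous embryos on the left, heterozygous in the middle and wild-type on the right. Lines only join the values of one gene, which dip together in heterozygous embryo 10 and peak in homozygous embryo 16 or, for Ppbp, in heterozygous embryo 15.

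The 250 bases before the start of these 4 genes are shown because Treml1, Ppbp and Gp9 had the highest r with Pf4 among the members, although the relation passed after adjustment for Treml1 alone. They are the RefSeq sequences of GRCm38.p6, 5′ to 3′ on the plus strand, and capitals mark matches to an ETS-type motif, GGAAG preceded by A or C, on either strand.
Pf4, chr5:90772185-90772434: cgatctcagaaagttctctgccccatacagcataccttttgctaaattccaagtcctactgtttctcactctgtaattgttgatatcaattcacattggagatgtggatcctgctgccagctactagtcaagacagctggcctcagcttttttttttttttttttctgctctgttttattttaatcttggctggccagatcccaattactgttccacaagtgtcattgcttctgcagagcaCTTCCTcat
Treml1, chr17:48359666-48359915: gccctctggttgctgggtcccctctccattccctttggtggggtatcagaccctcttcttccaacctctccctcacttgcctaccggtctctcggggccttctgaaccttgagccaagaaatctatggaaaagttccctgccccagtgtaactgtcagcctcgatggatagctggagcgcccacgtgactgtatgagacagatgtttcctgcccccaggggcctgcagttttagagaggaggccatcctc
Ppbp, chr5:90768268-90768517: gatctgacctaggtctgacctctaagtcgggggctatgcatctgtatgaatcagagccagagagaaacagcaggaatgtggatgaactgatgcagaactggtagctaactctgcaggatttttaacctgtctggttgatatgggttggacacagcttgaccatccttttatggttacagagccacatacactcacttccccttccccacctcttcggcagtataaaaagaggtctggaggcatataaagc
Gp9, chr6:87777820-87778069: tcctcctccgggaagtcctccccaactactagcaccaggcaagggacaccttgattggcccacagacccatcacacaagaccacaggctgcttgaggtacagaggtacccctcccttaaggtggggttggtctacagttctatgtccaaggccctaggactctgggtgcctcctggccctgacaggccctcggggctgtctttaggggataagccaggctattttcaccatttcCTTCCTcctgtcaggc
Pf4 and Gp9 each held 1 ETS-type match, starting 9 and 16 bases before the start of the gene, against 39.3% of all 32536 promoter windows of the same length with at least 1 match. None of the 4 windows held a GATA-type motif (GATA between A or T before it and A or G after it, on either strand), which 26.5% of all windows held. Pf4 and Ppbp lie side by side on chromosome 5.

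Selp, the gene for P-selectin, an adhesion protein of alpha granules and of endothelium, was at 5.50, 2.43 and 6.34 in homozygous embryos, against 4.40, 3.70 and 4.66 in heterozygous and 4.84 and 4.74 in wild-type embryos. It was above background in 5 of 8 embryos, and its homozygous values spanned the whole range seen. Among the thrombin receptors, F2r, which encodes Par1 and in mice serves endothelium rather than platelets, was at 7.87, 7.97 and 7.70 in homozygous, 7.95, 7.97 and 7.96 in heterozygous and 8.12 and 8.08 in wild-type embryos. F2rl2, which encodes Par3, the cofactor for thrombin on mouse platelets, was at 5.69, 5.95 and 5.68 in homozygous, 5.79, 5.85 and 6.51 in heterozygous and 5.91 and 5.92 in wild-type embryos. For F2r and F2rl2 alike, homozygous embryos 2 and 16 lay below all the heterozygous and wild-type embryos, and homozygous embryo 7 lay within their range. Rab27b, a small GTPase of dense-granule secretion, was above background in 1 of 8 embryos and not tested, at 3.88 to 4.23 in homozygous, 3.87 to 4.26 in heterozygous and 3.10 to 4.07 in wild-type embryos.

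**Figure D4:**
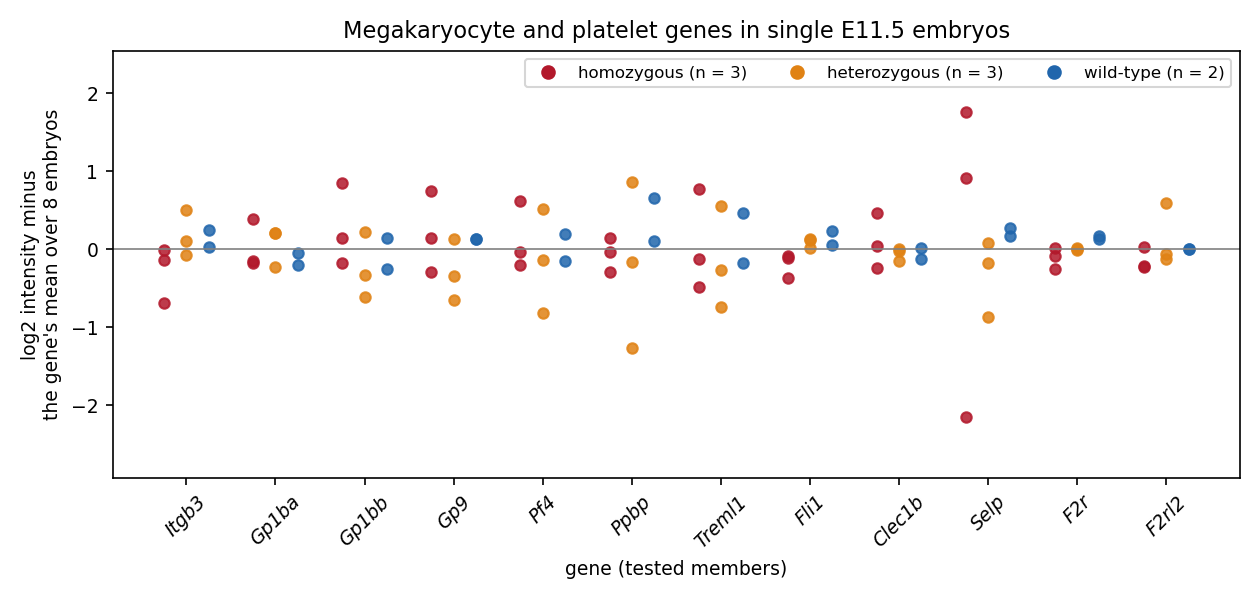
Log2 intensity of the 12 tested megakaryocyte and platelet genes in single embryos, minus each gene's mean over the 8 embryos (vertical axis). Red points are homozygous, orange heterozygous and blue wild-type embryos, and spread between embryos of one genotype is widest for Selp.

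The 2 classes differed in how much the embryos of one genotype varied, given here as a description. The median within-genotype SD was 0.359 over the 12 megakaryocyte genes and 0.124 over the 11 progenitor genes, against 0.20 over all tested probes, at median levels of 7.30, 7.74 and 7.24. For the 3 granule genes Pf4, Ppbp and Selp it was 0.71. As a class, the median megakaryocyte gene stood 0.17 below its mean in homozygous embryo 2, 0.04 below in embryo 7 and 0.14 above in embryo 16. The same median was 0.16 and 0.34 below in heterozygous embryos 3 and 10, 0.17 above in embryo 15, and 0.06 and 0.13 above in wild-type embryos 11 and 13. The median progenitor gene stayed between -0.07 and 0.09 in every embryo. Heterozygous embryo 10 held the lowest value of 5 of 12 megakaryocyte genes, against 9.26% of all probes, and homozygous embryo 16 the highest value of 5 of 12, against 16.7% of all probes. Embryo 10 was low in some summed markers of other cell types and high in others. Its germ cell sum (470) was the highest of the 8 embryos and its melanoblast sum (114) the lowest. Among heterozygous embryos, its erythroid (5811), endothelial (5703) and cardiac (24893) sums were the highest. Its fetal liver (3646) and mast cell (670) sums were the lowest of that genotype. Of the 8 embryos, embryo 10 had the lowest summed macrophage markers (674, against 780 to 1867 in the others) and the lowest summed neuron markers (5161, against 5484 to 9080). The homozygous embryos came nearest to it, at 780 to 797 for macrophage and 5484 to 6162 for neuron markers. Single macrophage markers were mixed, with Tyrobp, Aif1 and C1qb lowest in embryo 10 among the measured values and the other tested markers not. Tyrobp, a signalling adaptor, was at 5.99 in embryo 10, against 7.22 to 8.64 in the others. Fcgr1, above background in 5 embryos only, was at 4.68 in embryo 10, against 3.75 to 3.83 in homozygous embryos. The part of these cell types in the low megakaryocyte values was not tested.

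That spread set what the comparison of genotypes could show. For homozygous against the other embryos, the median log2 difference was -0.08 over the 11 progenitor genes, 8 of them negative, and 0.06 over the 12 megakaryocyte genes, 5 of them negative. Over all tested probes the median was -0.06, with 60.2% negative. The 95% interval reached 0.19 to 0.55 to either side of the estimate for progenitor genes and 0.22 to 1.74 for megakaryocyte genes. The interval stayed within a log2 difference of 1 in either direction for 11 of 11 progenitor genes and 9 of 12 megakaryocyte genes, the exceptions being Gp1bb, Ppbp and Selp. Without homozygous embryo 16 the progenitor median was -0.13 and the megakaryocyte median -0.10, and without homozygous embryo 2 they were -0.03 and -0.04. Leaving out either embryo thus turned the megakaryocyte median negative. Median scaling of the arrays moved the median of all probes to -0.22 and those of the progenitor and megakaryocyte genes to -0.31 and -0.10.

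Further genes of the same pathways gave the same count of 0 past the threshold in each of the 5 comparisons (limma, adjusted p over all tested probes). Of 20 other haematopoietic factors, 17 were tested, and for homozygous against the other embryos 2 were higher and 3 lower at an unadjusted p under 0.05, against 20% of all probes. Hoxa9, a homeodomain factor of stem cells that also patterns limb and trunk, was at 6.34, 6.76 and 6.10 in homozygous embryos, against 7.35, 6.97 and 6.83 in heterozygous and 7.21 and 7.11 in wild-type embryos. All its homozygous values were below the others, and the log2 difference was -0.69 (SE 0.17; adjusted p = 0.137). Etv6, an ETS repressor of stem cells, was at 6.20 to 6.30 in homozygous, 6.44 to 6.73 in heterozygous and 6.32 to 6.47 in wild-type embryos (log2 difference -0.25, SE 0.10; adjusted p = 0.241). Bmi1, a Polycomb protein of stem cell renewal, was at 6.81 to 7.08 in homozygous, 6.97 to 7.28 in heterozygous and 7.29 to 7.46 in wild-type embryos, a log2 difference of -0.47 against wild-type embryos (SE 0.15; adjusted p = 0.259).

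Of genes that have been named as targets of Rbm15 in blood cells, all 5 were tested, Runx1 among them. For homozygous against the other embryos, 1 was higher and 1 lower at an unadjusted p under 0.05, against 20% of all probes. Myc was at 9.12, 9.22 and 9.51 in homozygous, 8.81, 9.22 and 8.62 in heterozygous and 8.88 and 8.67 in wild-type embryos (log2 difference 0.44, SE 0.15; adjusted p = 0.187). Heterozygous embryo 10 reached the level of homozygous embryo 7, so the Myc values overlapped. Tal1, the helix-loop-helix organiser of blood specification, was at 11.11 to 11.33 in homozygous, 11.27 to 11.44 in heterozygous and 10.72 to 11.26 in wild-type embryos. Gata1, the zinc-finger factor of red cells and megakaryocytes, was at 6.78 to 7.10 in homozygous, 7.08 to 7.31 in heterozygous and 7.09 to 7.22 in wild-type embryos.

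Of 24 other megakaryocyte and platelet genes, 19 were tested. For homozygous against the other embryos, 2 were higher and 2 lower at an unadjusted p under 0.05, against 20% of all probes. Vwf, von Willebrand factor, was at 8.43, 8.52 and 9.21 in homozygous embryos, against 7.68, 7.73 and 7.97 in heterozygous and 7.68 and 8.15 in wild-type embryos. All homozygous values were above the others, with a log2 difference of 0.88 (SE 0.20; adjusted p = 0.121), or 0.64 without homozygous embryo 16 (adjusted p = 0.185). Endothelium makes Vwf too. The endothelial sum given beside Fli1 includes Vwf, and without it (12 probes) was 5213, 5636 and 6856 in homozygous embryos 2, 7 and 16, against 4996, 5491 and 5288 in heterozygous and 5030 and 5130 in wild-type embryos. The part of endothelium in the Vwf values was not tested. Nfe2, a leucine-zipper factor needed for platelet release and active in red cells, was at 7.84 to 8.25 in homozygous, 7.39 to 7.71 in heterozygous and 7.47 to 7.73 in wild-type embryos (log2 difference 0.45, SE 0.13; adjusted p = 0.158). P2rx1, the ATP-gated channel of platelets, was at 7.34 to 7.65 in homozygous, 7.78 to 7.95 in heterozygous and 7.97 to 8.09 in wild-type embryos (log2 difference -0.43, SE 0.11; adjusted p = 0.138). The differences of these 3 genes had both signs.

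Of 12 ligands and receptors of the stem cell niche, 11 were tested. For homozygous against the other embryos, 1 was higher and 1 lower at an unadjusted p under 0.05, against 20% of all probes. Flt3l, the ligand of Flt3, was at 5.61, 6.13 and 6.33 in homozygous, 5.64, 5.47 and 5.38 in heterozygous and 5.31 and 5.62 in wild-type embryos (log2 difference 0.54, SE 0.17; adjusted p = 0.168). Homozygous embryos 7 and 16 were above all others, and embryo 2 was not. Kitl, the ligand of Kit, was at 9.39 to 9.70 in homozygous, 9.39 to 9.63 in heterozygous and 9.06 to 9.22 in wild-type embryos, a log2 difference of 0.40 for homozygous (SE 0.14; adjusted p = 0.279) and 0.37 for heterozygous (SE 0.14; adjusted p = 1) against wild-type embryos. Cxcr4, the homing receptor for Cxcl12, was at 9.65 to 9.84 in homozygous, 9.16 to 9.56 in heterozygous and 9.54 to 9.73 in wild-type embryos (log2 difference 0.40 for homozygous against heterozygous embryos, SE 0.14; adjusted p = 0.399). Kitl was lowest in the wild-type embryos, and no difference of these niche genes passed after adjustment. The liver, which these progenitors colonise, was read by summed fetal liver markers (7 probes of 8 genes), at 2722 to 3655 in homozygous, 3646 to 6483 in heterozygous and 5812 to 6921 in wild-type embryos. Its part in the progenitor values was not tested. Summed cardiac markers (5 probes of 7 genes, Myh6 not above background on any array) were 24291 to 25070 in homozygous, 16768 to 24893 in heterozygous and 19345 to 21289 in wild-type embryos.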

How the data were processed

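RNA of 8 whole embryos (3 homozygous, 3 heterozygous, 2 wild-type) was read on one-colour CodeLink arrays, 1 embryo each. Per the file headers, the deposited intensity was made by taking the local background median from the mean of the spot. The deposited value table holds the same intensities divided by 1 factor per array. The scanner software is not given in the sources used here. Control spots were left out, spots marked as faulty (206 to 1634 per array) were set missing, and 22526 to 26619 probes were above background per array. Intensities were quantile normalized (limma 3.58.1, R 4.3.3), raised to a floor at the 5th percentile of positive values (an intensity of 4.50) and put on the log2 scale. The 23389 probes that every array of some genotype showed above background were fitted with lmFit and eBayes on all 8 arrays, two-sided, with p-values adjusted by Benjamini-Hochberg. The number of arrays limits the precision.

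Probes were named by RefSeq accession through a gene list of GRCm38.p6, which gave a symbol to 14763 of 34967 gene probes. Mecom had 2 probes and the brighter one stood for it. The members and lists were chosen with earlier results of these data known. All 35 members are accounted for, and differences are printed where the unadjusted p was under 0.05. Of each wider list, members that passed and up to 4 with the smallest F-test p were eligible to be named, with Gata1, Tal1 and Kitl always named, and 1 gene the rule named is not reported here. The fits were tested on simulated data. The alternatives were other normalizations, floors, filters and priors, array weights, a Y-linked covariate, the deposited table, the groups compared alone, and each embryo left out.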

Additional observations from a re-analysis of the deposited data

Results flagged for a closer look

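Single genotypes hold too few embryos for a check of distant values, so the 5 wild-type and heterozygous embryos, which form one side of the comparison with homozygous embryos, were treated as one set. The highest or lowest value stood far from the rest for 2 of the 23 tested genes, by Dixon's criterion for a single distant value, which chance meets in about 1 of 20 sets. Gfi1b was at 6.85 in wild-type embryo 13, against 6.65 to 6.70 in the 4 others. F2rl2 was at 6.51 in heterozygous embryo 15, against 5.79 to 5.92 in the 4 others. The gap made up 0.729 of the range for Gfi1b and 0.825 for F2rl2.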

How the results depend on the processing

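The count of members past the threshold stayed at 0 in all 5 comparisons under every alternative that was run. The differences of Gata2, Fli1 and Itgb3 for homozygous against the other embryos kept their sign and stayed above an adjusted p of 0.05 in 20 of 20 alternatives, with ranges of -0.43 to -0.16, -0.48 to -0.21 and -0.58 to -0.17. The median progenitor difference was -0.31 under median scaling (all probes -0.22) and -0.35 with the deposited table (all probes -0.25), and -0.131 to -0.0348 with 1 embryo left out. Those 2 settings do not equalise the distributions of the arrays. The median megakaryocyte difference was -0.14 with array weights (all probes -0.03), -0.10 under median scaling, -0.13 with the deposited table, and -0.10 to 0.17 with 1 embryo left out, so its sign is not settled. The cause was not tested. A slide or scan block was not run because the files give none. Keeping the marked spots was added after the data were seen. No paired analysis was possible because the embryo numbers are not shared between genotypes. Gfi1, Ikzf1, Cd48, Vav1, Gp5, Itga2b and Rab27b were not tested because no genotype had every array above background.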
